A study of Mus musculus with 8 samples.

Results

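The nuclear genes of the mitochondrial respiratory chain were followed through 8 arrays of mouse embryonic stem cells (ESCs) and of primordial germ cell-like cells (PGCLCs), with and without the transcription factor gene Tfap2c. The members were the genes whose symbols begin with Nduf, Sdh (Sdha to Sdhd), Uqcr, Cox4 to Cox8 or Atp5 and that had a probe set naming only that gene, with each gene read on its probe set of highest mean over the 8 arrays. This gave 90 genes of the 18193 measured. They comprised 6 core and 28 accessory subunits and 8 assembly factors of complex I, all 4 subunits of complex II, 8 genes of complex III, 19 of complex IV and 17 of complex V. Ndufa4 and its paralogue Ndufa4l2 were counted with complex IV, where the Ndufa4 protein resides despite its name. Symbols are those of the annotation used here, in which several complex V subunits still carry their older names. Another 8 genes or pseudogenes of the same families, Ndufs6 and Ndufa11 among them, were read only by probe sets that name several genes and were not counted.

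The respiratory chain sits in the inner mitochondrial membrane. Complex I (NADH dehydrogenase) and complex II (succinate dehydrogenase) feed electrons to ubiquinone, complex III passes them to cytochrome c and complex IV (cytochrome c oxidase) hands them to oxygen, and the proton gradient built on the way drives ATP synthesis by complex V. The core subunits of complexes I, III, IV and V are encoded partly by mitochondrial DNA, whereas complex II is encoded wholly in the nucleus and also acts in the tricarboxylic acid cycle. Naive mouse ESCs respire actively, epiblast-stage cells rely more on glycolysis, and germ cell specification is accompanied by further changes of energy metabolism.

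All cells carried the Blimp1mVenus transgene, a reporter of Prdm1 that marks PGCLCs. Control cells were the parental lines with both Tfap2c alleles floxed but not excised, so that the controls were not wild type. The knockout, Tfap2c-/-, was made from them by transient transfection of a Cre plasmid driven by the pGK promoter. The study used a pair of parental lines, and the labels do not say which array came from which line. PGCLCs were obtained by way of epiblast-like cells in medium with BMP4, BMP8b, SCF, LIF and EGF and were sorted for the Blimp1mVenus signal, so that the knockout PGCLCs measured were those that had switched the reporter on. The 4 groups, both genotypes as ESCs and as PGCLCs, had 2 arrays each. Values are normalised levels on the log2 scale, on which a difference of 1 is a change by a factor of 2, and differences were tested with limma over all 18193 genes with Benjamini-Hochberg adjustment, a gene passing at an adjusted p under 0.05. A p-value here measures the spread between these samples. Where RNA of a mixed population is read, fewer cells of a type and less RNA per cell cannot be told apart.

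The targeted gene itself, Tfap2c, read 9.84 and 10.29 in PGCLCs of the controls and 8.52 and 8.85 in those of the knockout. In ESCs it read 7.88 and 9.14 in controls and 7.28 and 6.47 in the knockout. Both knockout groups lay below their controls without overlap, and neither difference passed the test (-1.38, adjusted p = 0.150, and -1.63, adjusted p = 1.0, limma). The paper genotyped the ESC lines by PCR and stained them for the protein, and by RT-PCR it reported no signal in Tfap2c-/- PGCLCs. Where the array probe set lies relative to the excised part was not examined here. The summed level of 8 germ cell markers ran from 61.8 to 63.9 in control PGCLCs, from 50.9 to 51.3 in Tfap2c-/- PGCLCs and from 45.5 to 50.3 over the 4 ESC arrays. Markers of pluripotent ESCs (7 genes) summed to between 71.5 and 72.5 in ESCs. In PGCLCs they summed to 64.1 to 66.2 for the controls and to 68.3 to 69.9 for the knockout. For 4 markers of epiblast-like cells the sums were 19.4 to 21.0 in ESCs, and in PGCLCs 21.4 to 22.4 for the controls and 25.0 to 26.2 for the knockout. The sums of germ cell, pluripotency and epiblast-like cell markers thus separated the PGCLC genotypes. Of the single genes 3 of 8, 1 of 7 and 1 of 4 passed between them (limma). Tfap2c itself is among the germ cell markers. Klf4 read 6.91 and 6.65 in control and 8.52 and 9.48 in Tfap2c-/- PGCLCs. The pluripotency markers Nanog and Sox2 overlapped between these genotypes, as did the epiblast-like cell marker Fgf5. Visceral endoderm markers (7 genes) summed to between 22.9 and 25.4 on the 8 arrays and early mesoderm markers (4 genes) to between 16.0 and 17.2. Neural markers (4 genes) summed to 17.6 to 18.3 in ESCs, 18.9 to 19.1 in control PGCLCs and 18.3 to 20.3 in Tfap2c-/- PGCLCs. The summed level of 5 trophoblast markers, the keratins Krt8 and Krt18 among them, was 24.8 to 28.3 in PGCLCs and 20.6 to 22.3 in ESCs, and that of 5 fibroblast markers was 14.6 to 19.4 and 13.3 to 14.0. The part of cell composition in the differences below was not tested. The 3′ probe set of Gapdh exceeded its 5′ probe set by 0.31 to 0.39 on the 4 ESC arrays. In PGCLCs it did so by 0.48 and 0.95 on control arrays 1 and 2 and by 0.52 on both Tfap2c-/- arrays. This sign of RNA quality was thus higher on every PGCLC array than on every ESC array, and by it control PGCLC array 2 stood apart. Its part in the differences between cell types below was not tested. Values without control PGCLC array 2 are given for complex II, whose mean was lowest on it, and for the members that fell in control PGCLCs. Among other members, Ndufv2 and Ndufb5 also read lowest on it.

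The promoters of the members were examined because Tfap2c binds the AP-2 motif and because the families are known for motifs of NRF1, of ETS factors such as GABP and of YY1. RefSeq promoters (250 bases before to 50 after a start, GRCm38.p6) matched 74 of the 90 members, with 79 starts. The AP-2 motif GCCNNNGGC, read on both strands as were all motifs, lay in 17.7% of these windows, against 16.6% of all 32851 promoters and 22.1% of the 18109 promoters of genes measured on the array. The NRF1 motif GCGCANGCG lay in 26.6% of the member windows, against 6.25% of all promoters and 9.86% of those of measured genes. For the ETS motif CCGGAAG the shares were 24.1%, 8.86% and 13.0%, and for the YY1 motif ATGGCG they were 27.85%, 8.93% and 11.9%. By these letters the members thus resembled other genes for AP-2 and held the other 3 motifs in a larger share. A match describes the letters and does not show that a factor binds there.

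Shown for the group are 5 promoters, each as the 250 bases before the start with any match in capitals. Cox6a1 (chr5:115348959-115349208, minus strand), a small subunit of complex IV, held 3 NRF1 matches, 2 of them overlapping in a stretch that reads alike on both strands, and an ETS match. Cox5a (chr9:57520982-57521231, plus strand), a nuclear subunit of complex IV, held an AP-2 match and a YY1 match. Ndufaf4 (chr4:24897833-24898082, plus strand), an assembly factor of complex I with one of the larger knockout differences below, held the overlapping pair of NRF1 matches. Ndufv2 (chr17:66101560-66101809, minus strand) and Sdhb (chr4:140961021-140961270, plus strand), which fell in control PGCLCs, held none of the 4 motifs in these 250 bases.
Cox6a1: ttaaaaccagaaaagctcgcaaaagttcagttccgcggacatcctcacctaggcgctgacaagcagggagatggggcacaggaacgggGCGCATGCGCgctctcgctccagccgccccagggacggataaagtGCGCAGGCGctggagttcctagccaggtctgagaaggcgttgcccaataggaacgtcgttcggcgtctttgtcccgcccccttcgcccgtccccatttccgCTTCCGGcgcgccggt
Cox5a: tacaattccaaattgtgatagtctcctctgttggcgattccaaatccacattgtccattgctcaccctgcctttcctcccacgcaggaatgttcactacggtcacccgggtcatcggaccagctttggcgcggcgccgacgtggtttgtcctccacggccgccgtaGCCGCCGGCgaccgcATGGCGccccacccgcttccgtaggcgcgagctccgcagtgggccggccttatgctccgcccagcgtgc
Ndufaf4: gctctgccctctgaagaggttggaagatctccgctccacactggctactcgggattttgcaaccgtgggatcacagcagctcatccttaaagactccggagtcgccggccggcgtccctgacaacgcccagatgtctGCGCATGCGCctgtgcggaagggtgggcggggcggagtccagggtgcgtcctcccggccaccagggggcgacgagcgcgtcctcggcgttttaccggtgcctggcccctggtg
Ndufv2: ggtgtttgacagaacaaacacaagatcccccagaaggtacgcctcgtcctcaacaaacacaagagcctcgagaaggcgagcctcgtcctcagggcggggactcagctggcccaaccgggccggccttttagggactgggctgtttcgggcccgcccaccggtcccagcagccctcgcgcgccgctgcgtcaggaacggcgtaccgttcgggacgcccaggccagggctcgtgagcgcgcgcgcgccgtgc
Sdhb: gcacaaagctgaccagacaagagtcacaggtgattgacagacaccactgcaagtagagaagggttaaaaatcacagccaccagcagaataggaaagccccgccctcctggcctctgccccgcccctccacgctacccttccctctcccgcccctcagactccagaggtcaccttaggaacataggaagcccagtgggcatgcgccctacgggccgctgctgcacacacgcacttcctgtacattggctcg

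The members read mostly far above the median of the arrays and varied little between arrays. Of the 90 genes 73 had a mean over the arrays above 8, where the median of all probe sets was 3.52, and 4 lay below that median. The median SD between replicates was 0.12 for the members and 0.18 for all genes. The range over the 8 arrays had a median of 0.48 for the members and 0.66 for all genes, and it was under 1 for 85 of the 90 members and for 74.75% of all genes. The other 5 members were Cox7c, Ndufaf6, Cox7a1, Cox7b2 and Ndufa4l2, whose values are given below.

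**Figure D1:**
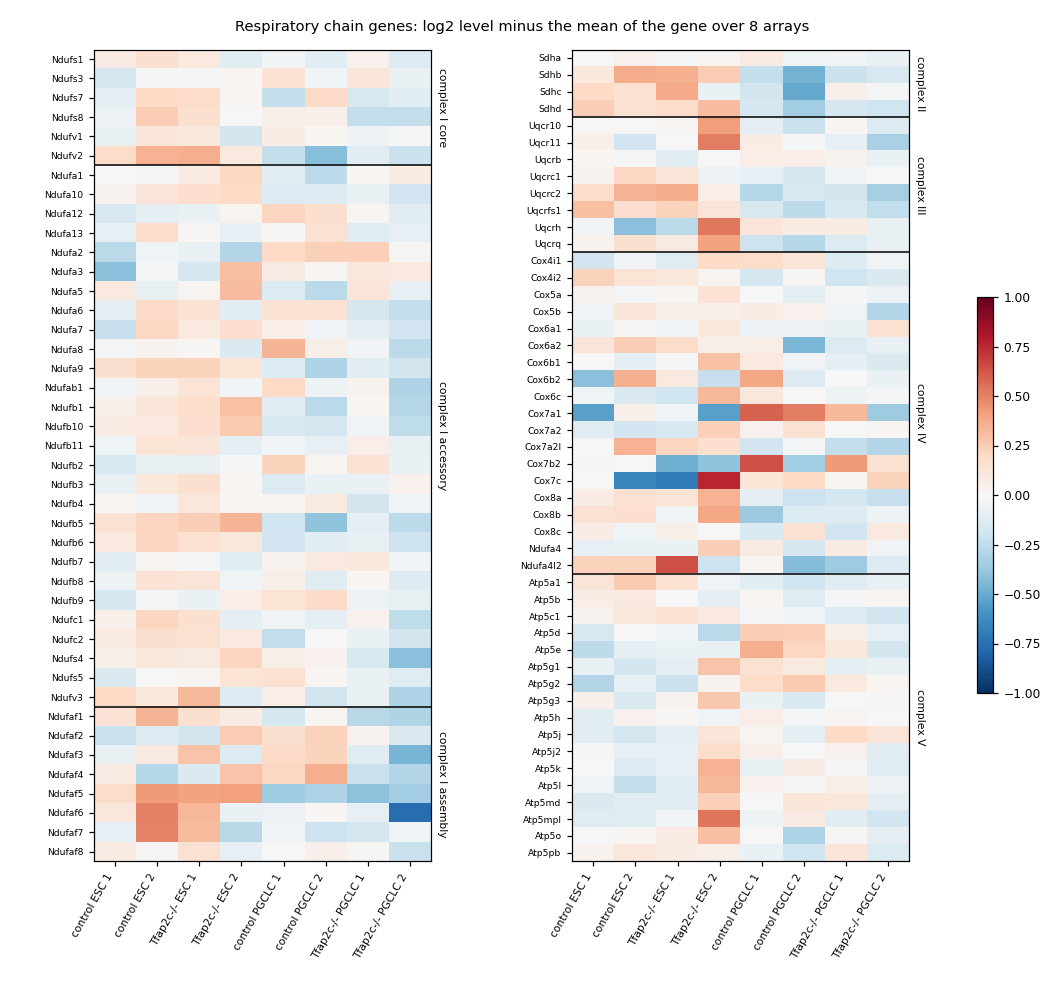
Heat map of the 90 members (rows, grouped by complex) on the 8 arrays (columns), each cell the log2 level minus the mean of that gene over the arrays, red above and blue below. Most rows stay pale, the PGCLC columns are blue for Ndufv2, Ndufb5, Ndufaf5, Sdhb, Sdhd, Uqcrc2 and Uqcrfs1, and Tfap2c-/- ESC array 2 is red for many small subunits.

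In PGCLCs no respiratory chain gene passed the test between Tfap2c-/- and control cells, and the differences were small in every complex. Averaged over the members after centring each gene on its mean, the arrays read 0.01 and -0.05 in control PGCLCs, against -0.04 and -0.13 in Tfap2c-/- PGCLCs. The groups overlapped. None of the 90 members passed the test, where 3.09% of all genes passed. At an unadjusted p under 0.05 there were 11 members (12.2%), 10 of them lower in the knockout, beside 15.7% of all genes. The differences ran from -0.57 to 0.37 with a median of -0.05, beside -0.04 over all genes (-0.0882 without Tfap2c-/- PGCLC array 1 and -0.0146 without array 2), and all 90 lay between the 5th and 95th percentiles of all genes. The 95% interval of the difference lay within 1 in either direction for 87 members (96.7%), beside 80.3% of all genes, and no member differed by more than 1. Both knockout arrays lay below both controls for 31 members (34.4%), beside 27.9% of all genes, and above both for 11 (12.2%), beside 19.5%.

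**Figure D2:**
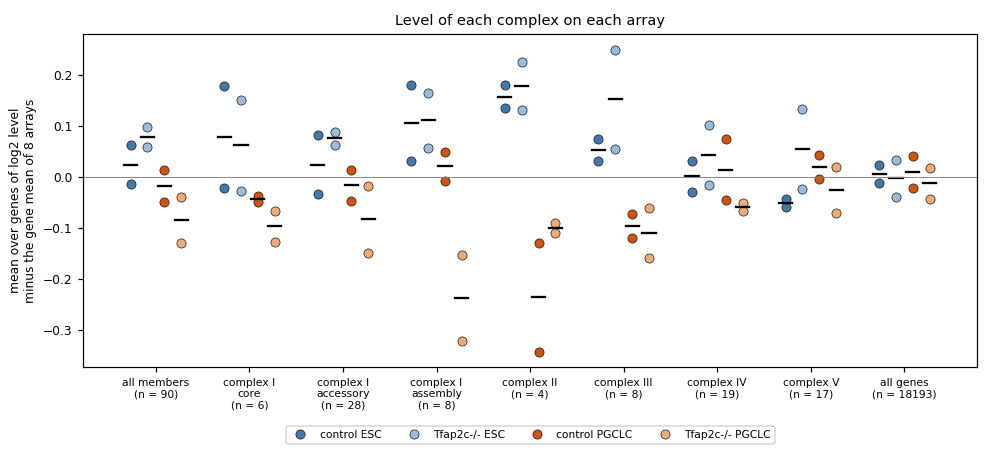
Mean over the genes of each complex of the log2 level minus the gene mean over 8 arrays (vertical axis), one point per array and a bar at the mean of the 2 arrays of a group. Complexes II and III lie lower on all 4 PGCLC arrays than on all 4 ESC arrays, the assembly factors of complex I are lowest on the Tfap2c-/- PGCLC arrays, and all genes together stay between -0.04 and 0.04.

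The assembly factors of complex I, which join its modules but are not part of the finished enzyme, had the lowest median of the 7 groups, -0.23. Of these 8 genes 7 had a negative difference (87.5%), beside 56.6% of all genes. Ndufaf4 read 8.72 and 8.87 in control PGCLCs, against 8.29 and 8.21 in Tfap2c-/- PGCLCs. Ndufaf3 read 7.52 and 7.55 in controls and 7.21 and 6.87 in the knockout. Neither gene overlapped between genotypes, and neither passed (-0.54, SE 0.19, adjusted p = 0.205, and -0.50, SE 0.19, adjusted p = 0.271, limma). The value of Ndufaf4 was the smallest adjusted p of any member in this comparison. As a group the 8 assembly factors averaged -0.01 and 0.05 on the control arrays and -0.15 and -0.32 on the knockout arrays.

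Among the core subunits of complex I, Ndufs8, which carries iron-sulfur clusters, read 10.27 and 10.26 in control PGCLCs and 9.97 on both knockout arrays (-0.29, adjusted p = 0.302, limma). Of the accessory subunits, Ndufa6 read 9.80 on both control arrays and 9.49 and 9.41 in the knockout (-0.35, adjusted p = 0.275), and Ndufa8 read 9.48 and 9.20 against 9.12 and 8.88 (-0.34, adjusted p = 0.309). These knockout arrays lay below the controls for each of the 3 genes, by amounts that did not pass. Complex II had the only positive median, 0.12. Its membrane anchor Sdhc read 7.93 and 7.60 in control PGCLCs and 8.17 and 8.10 in the knockout (0.37, SE 0.19, adjusted p = 0.404), the highest positive difference of any member. The iron-sulfur subunit Sdhb read 9.62 and 9.39 against 9.64 and 9.70 (0.17, adjusted p = 0.633). Sdhc and Sdhb were thus slightly higher on both knockout arrays, and control PGCLC array 2, with the deviating Gapdh ratio, was the lowest of the 8 arrays for both. Without that array the difference was 0.21 for Sdhc and 0.0519 for Sdhb, and the median of complex II was 0.0206.

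In complex III the differences in PGCLCs ran from -0.23 to 0.14. Uqcr11, a small subunit, read 9.65 and 9.55 in controls and 9.49 and 9.25 in the knockout (-0.23, adjusted p = 0.642, limma). Uqcrq, the ubiquinone-binding small subunit, read 9.13 and 9.05 against 9.20 and 9.27 (0.14, adjusted p = 0.711), and it was -0.29 on the probe set taken when those liable to match other transcripts were left out. Cox7a1, the heart and muscle isoform of a complex IV subunit, had the most negative difference of all members. It read 7.42 and 7.34 in control PGCLCs and 7.15 and 6.48 in the knockout, and the wide gap between the knockout arrays left a difference of -0.57 with SE 0.30 (adjusted p = 0.430). Cox4i1, the common isoform of the largest nuclear subunit of complex IV, read 11.80 and 11.73 against 11.48 and 11.57 (-0.24, adjusted p = 0.382). In complex V, the epsilon subunit Atp5e read 10.09 and 9.94 in controls and 9.84 and 9.55 in the knockout (-0.32, adjusted p = 0.287), and the delta subunit Atp5d read 11.01 and 11.00 against 10.82 and 10.68 (-0.25, adjusted p = 0.317). Both subunits of the central stalk were lower on each knockout array, without passing.

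**Figure D3:**
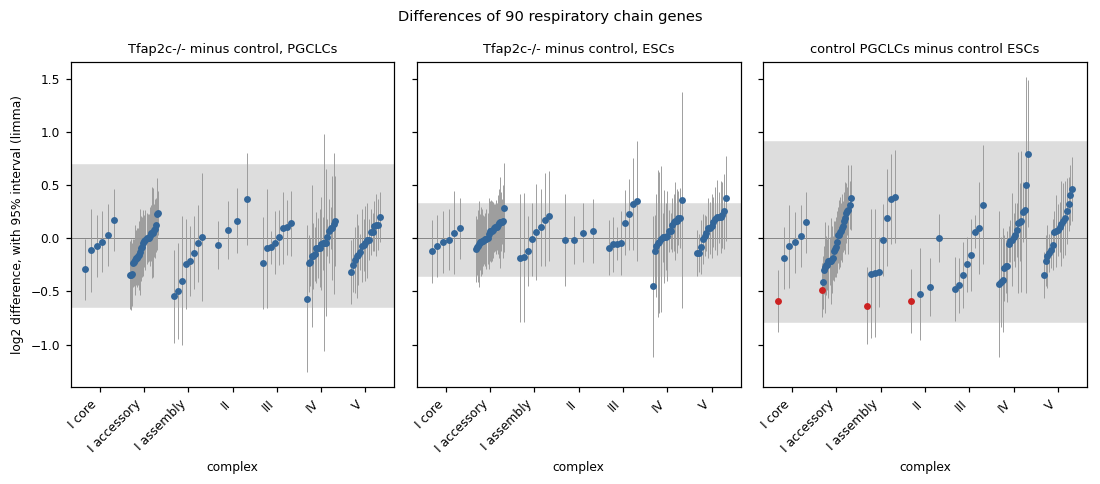
Log2 difference (vertical axis) of each of the 90 members with its 95% limma interval, by complex, for Tfap2c-/- minus control in PGCLCs (left) and in ESCs (middle) and for control PGCLCs minus control ESCs (right). The grey band spans the 5th to 95th percentiles of all 18193 genes. Red points passed the test, which 4 members did, all in the right panel.

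In ESCs the differences between genotypes were small as well. None of the 90 passed, as none of the 18193 genes did (0.0%), and none had an unadjusted p under 0.05, beside 2.50% of all genes (455). The differences ran from -0.45 to 0.38 with a median of 0.06, beside -0.0013 over all genes. The interval lay within 1 in either direction for 88 members (97.8%), beside 89.6% of all genes. Both knockout arrays lay above both controls for 15 members (16.7%), beside 11.8% of all genes, and below both for 3 (3.33%), beside 11.0%. By complex, the median difference was highest for complex V, at 0.11, where 13 of 17 genes were positive. Its negative share was 23.5%, beside 50.4% of all genes.

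The median in ESCs stayed positive with any 1 array left out, while its size varied. It was 0.0032 without control ESC array 1 and 0.10 without control ESC array 2, and it was 0.0195 and 0.0335 without array 1 and array 2 of the knockout. Several of the larger single differences rested on Tfap2c-/- ESC array 2. Atp5mpl, a small membrane subunit of complex V, read 9.91 on both control arrays and 10.01 and 10.57 in the knockout (0.38, SE 0.17, adjusted p = 1.0, limma). Uqcrh, the hinge protein of complex III, read 10.59 and 10.20 in controls and 10.35 and 11.14 in the knockout (0.35, SE 0.24), and without array 2 of the knockout the difference was -0.05. Cox7c, a small subunit of complex IV, read 5.73 and 5.09 against 5.05 and 6.50 (0.36, SE 0.44), and without that array it was -0.37. For each of these genes 1 array thus set the size of the difference, and for the latter pair also its sign. The same array exceeded the mean of the other 3 ESC arrays by 0.56 for Uqcr11, by 0.51 for the accessory complex I subunit Ndufa3 and by 0.46 for Atp5l, a membrane subunit of complex V, and for Cox6c, of complex IV. It was the highest of the 4 ESC arrays for 40 of the 90 members (44.4%), beside 26.0% of all genes, and for 10 of 19 genes of complex IV and 10 of 17 of complex V. Control ESC array 1 was the lowest of the 4 for 40 of the 90 as well, beside 21.7% of all genes. These counts were made after the values were seen, and the cause was not tested.

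Other members in ESCs differed by less. The core complex I subunit Ndufs1 had a difference of -0.12 and Ndufs3 one of 0.09, Ndufa3 one of 0.29 and the accessory subunit Ndufa5 one of 0.16. Among the assembly factors Ndufaf2 gave 0.21 and Ndufaf7 gave -0.19, the sign of either turning when single arrays were left out. Sdhb gave 0.07 and the complex II anchor Sdhd gave 0.05. Uqcr11 gave 0.32 and Atp5l 0.25. Cox7b2, the testis isoform of a complex IV subunit, had the most negative value, -0.45, at a level of 2.60 and 2.59 in controls and 2.10 and 2.18 in the knockout, all below the median of the arrays.

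The difference of the knockout effects between PGCLCs and ESCs was itself tested for each gene. None of the 90 members passed, where 0.148% of all genes passed, and 5 members had an unadjusted p under 0.05, beside 9.01% of all genes. The median over members was -0.10, beside -0.04 over all genes, and 64 of 90 had a negative value (71.1%), beside 55.0% of all genes. Ndufaf4 had the largest absolute value, -0.72 (SE 0.27, adjusted p = 0.473, limma), followed in size by Cox7b2 at 0.59, Ndufaf3 at -0.56 and Uqcr11 at -0.55. Atp5mpl gave -0.54, the accessory complex I subunit Ndufs4 -0.41, Sdhc 0.39 (0.22 without control PGCLC array 2) and Ndufs8 -0.28. The interval of this difference lay within 1 in either direction for 77 members (85.6%), beside 65.6% of all genes.

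Between the cell types the members differed in both directions. In control PGCLCs against control ESCs 4 members fell, where 3.72% of all genes passed as lower, and none rose, where 4.64% passed as higher. At an unadjusted p under 0.05 there were 22 members (24.4%), 14 of them lower, beside 23.4% of all genes. The median was -0.02, beside -0.03 over all genes, with 47 members negative (52.2%, beside 53.8% of all genes) and 43 positive. Control PGCLC arrays lay below both control ESC arrays for 36 members (40.0%), beside 28.5% of all genes, and above both for 27 (30.0%), beside 25.3%.

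The genes that fell were Ndufv2, Ndufb5, Ndufaf5 and Sdhb. Ndufv2, a core subunit of the NADH-oxidising arm of complex I, read 10.56 and 10.73 in control ESCs and 10.14 and 9.95 in control PGCLCs (-0.59, SE 0.13, adjusted p = 0.0303, limma). Ndufb5, an accessory subunit of its membrane arm, read 10.54 and 10.60 against 10.19 and 9.99 (-0.49, SE 0.11, adjusted p = 0.0369). Ndufaf5, an assembly factor that hydroxylates a core subunit, read 6.86 and 7.11 against 6.33 and 6.38 (-0.63, SE 0.16, adjusted p = 0.0478). In each of the 3 genes all PGCLC values lay well below all ESC values. Sdhb, the iron-sulfur subunit of complex II, read 9.96 and 10.23 in control ESCs and 9.62 and 9.39 in control PGCLCs (-0.59, SE 0.13, adjusted p = 0.0339). The knockout PGCLCs also lay below all 4 ESC arrays for these genes, at 10.27 and 10.17 for Ndufv2, 10.30 and 10.12 for Ndufb5, 6.27 and 6.34 for Ndufaf5 and 9.64 and 9.70 for Sdhb. Without control PGCLC array 2, with the deviating Gapdh ratio, the differences were -0.50 for Ndufv2, -0.39 for Ndufb5, -0.66 for Ndufaf5 and -0.48 for Sdhb. With 2 arrays a group, these calls were close to the threshold. Of the 4, Ndufaf5 alone passed without a variance trend and Ndufv2 alone with only the control groups fitted. Without either control ESC array, either control PGCLC array or either Tfap2c-/- PGCLC array none of the 90 members passed, and Ndufaf5 also did not pass without either Tfap2c-/- ESC array, while the 4 differences stayed negative, between -0.76 and -0.39 over all alternatives.

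Several other genes of complexes II and III were lower in control PGCLCs by similar amounts that did not pass. Complex II as a whole had a median of -0.49, with 3 of its 4 genes lower on both control PGCLC arrays than on both control ESC arrays, beside 28.5% of all genes. Without control PGCLC array 2 the median was -0.37. Sdhd gave -0.46 (adjusted p = 0.0569, limma) and Sdhc -0.53 (adjusted p = 0.135), while the flavoprotein Sdha, the catalytic subunit, gave 0.00. Sdha read 9.87 and 9.92 in control ESCs and 9.96 and 9.83 in control PGCLCs, so that the groups overlapped. The mean of the 4 genes ran from 0.13 to 0.23 on the ESC arrays and from -0.34 to -0.09 on the PGCLC arrays, with control PGCLC array 2 the lowest. In complex III the Rieske iron-sulfur protein Uqcrfs1 read 9.61 and 9.48 against 9.15 and 9.05 (-0.44, adjusted p = 0.0510), and the core protein Uqcrc2 read 10.57 and 10.73 against 10.10 and 10.24 (-0.48, adjusted p = 0.0633). Both were as low in Tfap2c-/- PGCLCs, at 9.16 and 9.06 for Uqcrfs1 and 10.20 and 10.06 for Uqcrc2. On its other probe set Uqcrc2 passed, with -0.71 (adjusted p = 0.0196 over all probe sets). The small subunit Uqcr10 differed between its 3 probe sets, one of which passed at -0.96 (adjusted p = 0.0382), while the brightest gave -0.15. Complex III as a whole had a median of -0.20, with 5 of its 8 genes negative (62.5%, beside 53.8% of all genes) and 3 positive. Uqcrh was among the latter, at 10.59 and 10.20 in control ESCs and 10.74 and 10.69 in control PGCLCs (0.32).

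Complexes IV and V had the only positive medians, 0.0145 and 0.0758, with 10 of 19 and 11 of 17 genes positive. Their negative shares were 47.4% and 35.3%, beside 53.8% of all genes. Cox7a1 read 6.29 and 6.89 in control ESCs and 7.42 and 7.34 in control PGCLCs (0.80, SE 0.30, adjusted p = 0.156, limma). Atp5e read 9.48 and 9.63 against 10.09 and 9.94 (0.46, SE 0.13, adjusted p = 0.0711). Atp5g2, one of 3 genes for the same rotor ring protein of complex V, read 9.90 and 10.12 against 10.38 and 10.46 (0.41, adjusted p = 0.0862). These groups did not overlap, yet the differences did not pass. Cox7c gave 0.50 with SE 0.44 (adjusted p = 0.555).

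**Figure D4:**
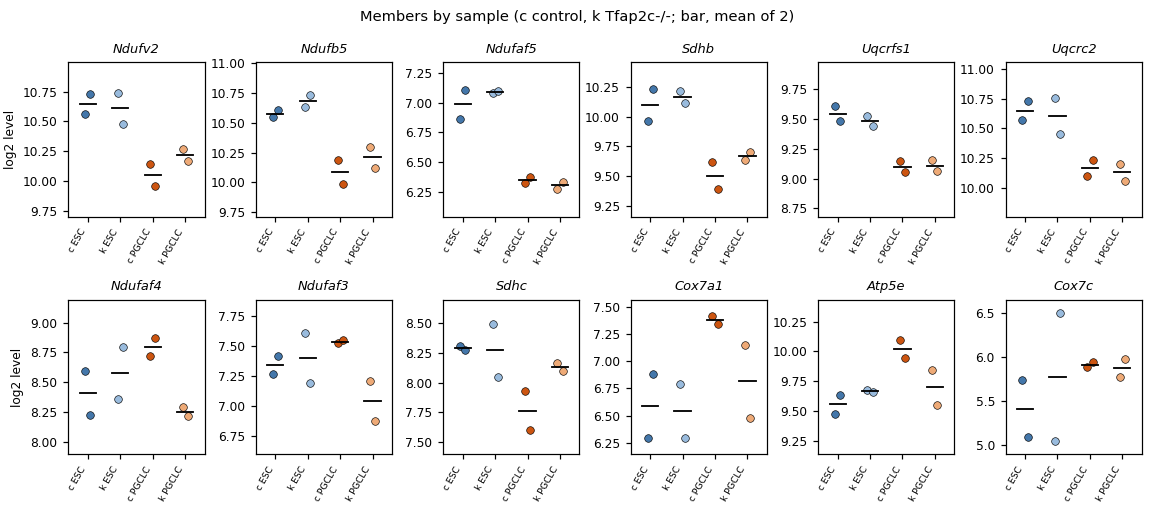
Log2 level (vertical axes, which differ in range and do not start at 0) of 12 members on the 8 arrays, one point per array with a bar at the mean of the 2, for control (c) and Tfap2c-/- (k) ESCs and PGCLCs. Ndufv2, Ndufb5, Ndufaf5, Sdhb, Uqcrfs1 and Uqcrc2 are lower in PGCLCs of both genotypes, Ndufaf4 and Ndufaf3 lower in Tfap2c-/- PGCLCs than in control PGCLCs, and Cox7c has 1 high Tfap2c-/- ESC array at 6.50.

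In Tfap2c-/- PGCLCs against Tfap2c-/- ESCs 1 member fell, where 0.973% of all genes passed as lower, and none rose, where 1.35% passed as higher. At an unadjusted p under 0.05 there were 24 members (26.7%), 22 of them lower (24.4%), beside 18.5% of all genes and 9.905% lower. The 1 was Ndufaf5, at 7.08 and 7.10 in knockout ESCs and 6.27 and 6.34 in knockout PGCLCs (-0.78, SE 0.16, adjusted p = 0.0494, limma), and it no longer passed when any 1 of the 8 arrays was left out. The median was -0.14, beside -0.06 over all genes, and 72 of the 90 members were negative (80.0%), beside 59.0% of all genes. This comparison shares its ESC arrays with the knockout comparison in ESCs, in which Tfap2c-/- ESC array 2 was high for many members, and without that array its median was still negative. Sdhb gave -0.49, Uqcrc2 -0.48, Ndufb5 -0.47, Atp5mpl -0.41 and Ndufv2 -0.39. Cox7b2 gave 0.73 at levels below the median of the arrays.

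Isoforms of the chain are given by the range of each over the 8 arrays, since levels of different probe sets cannot be set against each other. In complex IV the isoforms known from most tissues, Cox4i1, Cox6a1, Cox6b1, Cox7a2 and Cox8a, had values from 9.80 to 12.81 on all arrays. Of the isoforms restricted to certain tissues or states, Cox4i2, the lung and hypoxia isoform, read between 2.90 and 3.33, and Cox8b, of heart and muscle, between 2.92 and 3.67. Cox6a2, of heart and muscle, read between 4.15 and 4.85. On every array Cox4i2, and on all but Tfap2c-/- ESC array 2 Cox8b, thus lay below the median of the arrays, 3.52. Cox7a1, at 6.29 to 7.42, Cox6b2, a testis isoform, at 6.74 to 7.55, and Cox8c, another testis isoform, at 5.80 to 6.14, were above it on all 8 arrays. Cox7a2l, a relative of Cox7a2 that tethers complexes III and IV, read between 9.65 and 10.29. Ndufa4 read between 10.47 and 10.88 and Ndufa4l2, which rises under hypoxia in other cells, between 3.79 and 4.87, with its highest value on Tfap2c-/- ESC array 1 and 4.02 on array 2 of that group. The 3 genes of the complex V rotor ring were read at 9.94 to 10.41 for Atp5g1, 9.90 to 10.46 for Atp5g2 and 11.43 to 11.85 for Atp5g3. None of these isoforms passed in any comparison.

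A few members had values that need their probe set. Ndufb4 read 2.06 to 2.36 on the probe set naming it alone, while 2 probe sets shared with its relatives Ndufb4b and Ndufb4c read 9.66 to 10.29, so that the lower value is not a level of the gene as a whole. Cox7c, whose probe set here is liable to match other transcripts, spanned 1.45 over the arrays, the widest range of the members. Ndufaf6, an assembly factor of complex I, read between 7.51 and 8.09 on 7 arrays and 6.82 on Tfap2c-/- PGCLC array 2. For the 51 members with several probe sets, the highest and lowest difference in PGCLCs among the probe sets of a gene were compared. They lay a median of 0.11 apart, and for 4 genes more than 0.5. Ndufs4 had the largest gap, 1.24, between a bright probe set at -0.34 and a dim one at 0.90, and neither passed.

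Other mitochondrial lists were read for comparison. Of 46 further genes for assembly and electron carriers, none passed between genotypes in PGCLCs (3.09% of all genes) or in ESCs (0.0%), and 1 passed in any comparison, lower in knockout PGCLCs than in knockout ESCs (0.973% of all genes). This was Uqcc1, an assembly factor of complex III, at 6.48 and 6.35 in Tfap2c-/- ESCs and 5.63 and 5.66 in Tfap2c-/- PGCLCs (-0.77, adjusted p = 0.0494, limma), which no longer passed without any 1 array or with only the knockout groups fitted and gave -0.32 as a mean of its probe sets. Sdhaf4, an assembly factor of complex II, read 9.01 and 9.03 in control PGCLCs, against 8.13 and 7.58 in Tfap2c-/- PGCLCs (-1.16, SE 0.27, adjusted p = 0.0639), the largest knockout difference of this list, and it passed when either Tfap2c-/- ESC array was left out of the fit. Tmem70, an assembly factor of complex V, read 7.64 and 7.33 against 6.69 and 6.27 (-1.004, adjusted p = 0.183). Both assembly factors were lower on both knockout arrays.

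Of 22 genes for transcription and copying of mitochondrial DNA and their regulators, Ppargc1b, a coactivator of mitochondrial genes, fell furthest. In ESCs it read 6.64 and 6.23 (controls) and 6.80 and 7.16 (knockout), and in PGCLCs 3.88 and 3.75 (controls) and 4.51 and 5.01 (knockout). It was lower in PGCLCs than in ESCs in controls (-2.62, SE 0.25, adjusted p = 0.00194, limma) and in the knockout (-2.22, adjusted p = 0.00949, not passing without Tfap2c-/- PGCLC array 1 or with only these groups fitted), and the first call held under every alternative tried. Between genotypes in PGCLCs it differed by 0.94 (adjusted p = 0.0995), and Tfb1m, which methylates mitochondrial ribosomal RNA, by -0.54 (adjusted p = 0.377). Polg, the polymerase that copies mitochondrial DNA, rose in control PGCLCs, from 6.28 and 6.41 in control ESCs to 7.05 and 7.13 (0.75, SE 0.15, adjusted p = 0.0252). No gene of this list passed between genotypes in PGCLCs.

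In the tricarboxylic acid cycle 3 of 13 genes fell and none rose in control PGCLCs, where 3.72% of all genes passed as lower and 4.64% as higher. Citrate synthase, Cs, which opens the cycle, read 10.26 and 10.28 in control ESCs and 9.91 and 9.83 in control PGCLCs (-0.40, adjusted p = 0.0365, limma). Idh3a, the catalytic subunit of NAD-dependent isocitrate dehydrogenase, read 9.74 and 9.87 against 9.23 and 8.99 (-0.70, adjusted p = 0.0466). Dld, the dehydrogenase shared by several 2-oxoacid complexes, read 8.27 and 8.10 against 7.52 and 7.43 (-0.71, adjusted p = 0.0200, and -0.36 as a mean of its probe sets). None of the 13 passed between genotypes, the largest differences in PGCLCs being -0.71 for Suclg2 and -0.42 for Sucla2, subunits of succinyl-CoA synthetase.

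Of 11 genes of the hypoxia response, Epas1, a hypoxia-inducible transcription factor, alone passed between genotypes, higher in the knockout PGCLCs. It read 7.15 and 6.55 in control PGCLCs, 8.71 and 8.94 in Tfap2c-/- PGCLCs and 7.03 to 7.17 on the 4 ESC arrays. The difference was 1.98 in PGCLCs (SE 0.21, adjusted p = 0.00513, limma) and 0.03 in ESCs, and the difference between these effects, 1.95, did not pass (adjusted p = 0.0793). Without Tfap2c-/- PGCLC array 2 the first did not pass, and as a mean of its probe sets it was 1.08 and did not pass. Against Tfap2c-/- ESCs the difference was 1.73 (adjusted p = 0.0130), which fell to 0.90 and did not pass as a mean of its probe sets, nor did it pass without Tfap2c-/- ESC array 1 or either Tfap2c-/- PGCLC array. Slc2a1, a glucose transporter, fell in control PGCLCs, from 10.67 and 10.69 in control ESCs to 9.86 and 10.02 (-0.74, adjusted p = 0.0431). Its knockout PGCLC arrays read 10.24 and 10.66. Of the other genes of this list some were lower and some higher in knockout PGCLCs, without passing. Egln3 read 6.42 and 6.79 in control and 5.65 and 4.77 in Tfap2c-/- PGCLCs (-1.40). Bnip3 read 8.28 and 7.96 against 7.41 and 6.58. Both genes also lay far apart on the 2 arrays of Tfap2c-/- ESCs, at 6.33 and 4.46 for Egln3 and 9.61 and 6.56 for Bnip3. The list median between genotypes in PGCLCs was 0.03. Between control cell types Ldha had the largest difference of the list, -2.99, without passing. It read 10.50 and 10.09 in control ESCs and 7.98 and 6.62 in control PGCLCs. In the knockout Ldha read 10.79 and 8.51 in ESCs and 9.11 and 7.96 in PGCLCs, the latter higher on average than the controls but overlapping them.

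Of 76 genes of the mitochondrial ribosome, Mrps6 rose in PGCLCs, from 7.61 and 7.81 to 8.64 and 8.40 in controls (0.81, adjusted p = 0.0164, limma) and from 7.77 and 7.76 to 8.62 and 8.69 in the knockout (0.89, adjusted p = 0.0284, not passing without probe sets liable to match other transcripts or with only the knockout groups fitted). Mrpl45 fell in control PGCLCs, from 9.37 on both ESC arrays to 8.94 and 8.88 (-0.46, adjusted p = 0.0365). No gene of this list passed between genotypes, the largest differences in PGCLCs being -0.73 for Mrpl23 and 0.52 for Mrps34. All calls of these lists in control PGCLCs against control ESCs, that of Ppargc1b excepted, were lost without any 1 of the 4 arrays compared. Those of Cs, Idh3a and Mrpl45 were also lost without either Tfap2c-/- PGCLC array and that of Polg without Tfap2c-/- PGCLC array 2, and that of Mrps6 in the knockout without any 1 of the 4 knockout arrays. Of the calls between control cell types, those of Cs, Polg, Dld and Slc2a1 were lost as means of probe sets, those of Cs, Idh3a, Slc2a1 and Mrpl45 without a variance trend, those of Idh3a and Slc2a1 with quantile normalization and those of Cs, Polg and Mrpl45 with only the control groups fitted. The list medians in PGCLCs between genotypes were -0.14 for the assembly and carrier genes, -0.09 for the regulators, -0.03 for the cycle, 0.03 for the hypoxia genes and -0.07 for the mitochondrial ribosome.

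**Figure D5:**
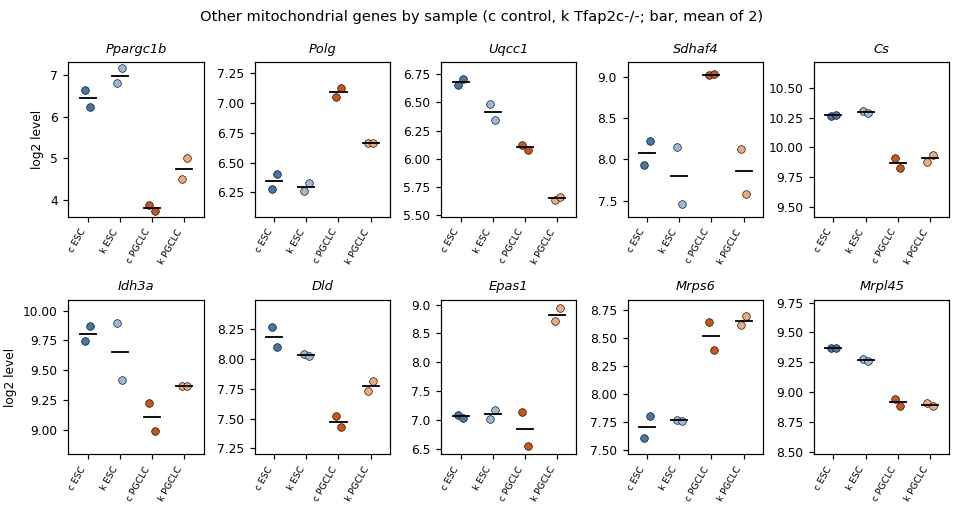
Log2 level (vertical axes, which differ in range and do not start at 0) of 10 other mitochondrial or hypoxia genes on the 8 arrays, one point per array with a bar at the mean of the 2, for control (c) and Tfap2c-/- (k) ESCs and PGCLCs. Ppargc1b, Cs, Idh3a, Dld, Uqcc1 and Mrpl45 are lower and Mrps6 higher in PGCLCs of both genotypes, and Epas1 is highest on the 2 Tfap2c-/- PGCLC arrays.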

How the data were processed

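Total RNA of 8 samples, 2 in each of 4 groups taken from the sample labels, had been hybridised to Affymetrix GeneChip Mouse Genome arrays with 1 colour. The deposited values are levels in log2 units, normalized by the authors. RMA is named as the algorithm in the methods, whereas GCRMA is listed in the processing notes of the submitters (no version given). The probe intensities were not used here, so background correction and probe summary are those of the authors. Array medians lay between 3.47 and 3.55, and values near them are at the background, where differences are compressed. No further normalization was applied, and no value column was left out.

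Of 45101 probe sets, 34945 name 1 gene in the platform annotation, 932 several and 9160 are not listed, besides 64 controls. A gene was represented by its probe set of highest mean, which gave 18193 genes. With limma 3.58.1 in R 4.3.3 the 4 group means were fitted together, with 4 residual and 3.67 prior degrees of freedom and a trend of variance on level. Tests were two-sided, with Benjamini-Hochberg adjustment over all genes. The scripts were tested on simulated data. Tables and plots were made with Python 3.11.15, pandas 2.3.3 and Matplotlib 3.10.9. Alternatives concerned the probe set, a filter on dim genes, the variance model, the scaling, the samples fitted, a replicate block and the fold rule of the methods, a log2 difference above 1.5.

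The members and gene lists were chosen with earlier results of these data known. The text names, in each comparison, the members past limma, else up to 2 of each complex with the largest absolute difference, with all members of the isoform families, up to 3 genes of each other list past limma or else up to 2 with the largest difference, Tfap2c, and the 5 members of widest range. Sdha, Sdhd, Sdhc and Uqcrh in the comparison of control cells and Ndufaf3 in the difference of effects were named after their values were seen. The same holds for Uqcr10, Ndufb4, Cox6c, Egln3, Bnip3, Ldha and the marker genes. The number of arrays limits the precision.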

Additional observations from a re-analysis of the deposited data

How the results depend on the processing

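The count of members lower in control PGCLCs than in control ESCs was 4 as reported, 9 with dim genes left out, 1 without a variance trend, 1 with only the 2 groups fitted and 0 by the fold rule. Leaving out 1 array gave 0 to 5. The count in Tfap2c-/- PGCLCs against Tfap2c-/- ESCs was 1 as reported, 2 with every probe set tested (Uqcr10 and Uqcrc2), and 0 without probe sets liable to match other transcripts, with arrays centred on their medians, with 2 groups fitted, with the replicate block, by the fold rule and without any 1 array (0 to 0). The counts of 0 between genotypes and for the difference of effects were 0 under every alternative run. With 1 array left out the median over members ran from -0.0882 to -0.0146 between genotypes in PGCLCs, from 0.0032 to 0.10 between genotypes in ESCs, from -0.0726 to 0.0089 between control cell types, from -0.20 to -0.13 between knockout cell types and from -0.162 to -0.0467 for the difference of effects. Signs turned for Uqcrq in PGCLCs (-0.29 without probe sets liable to match other transcripts) and, in ESCs with 1 array left out, for Ndufaf2 (-0.0111 to 0.43), Ndufaf7 (-0.49 to 0.11), Sdhb (-0.0646 to 0.20), Sdhd (-0.0106 to 0.12), Uqcrh (-0.0474 to 0.75) and Cox7c (-0.37 to 1.09). Over all named genes and alternatives 1043 values kept sign and call, 126 lost the call, 9 gained it and 8 changed sign. The cause of these changes was not tested.

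The labels number the samples of each group 1 and 2. The deviations of same-numbered samples from their group means correlated from -0.33 to 0.39 over the 6 pairs of groups, not all above 0.1. The numbers may not follow the parental lines in every group. These values therefore cannot show whether samples were paired by line. With the replicate block 0 members passed between genotypes in PGCLCs and 0 in ESCs, 3 between control cell types, 0 between knockout cell types and 0 for the difference of effects. The calls of Ndufaf5, Cs, Slc2a1 and Mrpl45 between control cell types and of Ndufaf5 and Uqcc1 between knockout cell types were lost with it, at adjusted p from 0.0522 to 0.0663 (limma). Over all genes the block changed the calls in PGCLCs from 235 higher and 327 lower to 255 and 301.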
